A study of Mus musculus with 4 samples.

Results

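The genes described here are 7 members of the oligodendrocyte lineage, Olig1, Olig2, Pdgfra, Cspg4, Mbp, Cnp and Myrf, taken by gene symbol from a table of 32681 genes. All 7 were present in the table and all 7 passed the filter on low counts. Oligodendrocytes are the glial cells that wrap axons of the central nervous system in myelin. They arise from precursors that are specified by the transcription factors OLIG1 and OLIG2, divide in response to platelet-derived growth factor (PDGF) through the receptor PDGFRA, and carry the surface proteoglycan NG2, the product of Cspg4. When precursors differentiate, the transcription factor MYRF switches on myelin genes, among them Mbp and Cnp. In the mouse neocortex this lineage appears late, after most neurons have been born.

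RNA was sequenced from 4 primary neuron cultures made from the neocortex of wild-type CD-1 mouse embryos at embryonic day 13 and grown in Neurobasal medium with B27. The outbred CD-1 cultures received by transfection either a control short hairpin RNA (shRNA) or an shRNA against DcpS, with 2 libraries in each group, numbered 1 and 2 as in the titles. The titles name the same hairpin for both DcpS shRNA libraries. Effects of lowering DcpS and other effects of that hairpin therefore cannot be told apart. DcpS is the enzyme that clears residual cap structures after mRNA has been degraded from its 3′ end. The share of cells that took up the hairpin, and how many embryos each culture pooled, are not stated in the labels. Nothing says that the cultures were independent, so the p-values reflect the spread of these libraries, which may be technical.

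The libraries held 17754768 to 21793685 reads. Normalised read counts of Dcps itself were 499.8 and 506.6 in control libraries and 114.5 and 119.6 in DcpS shRNA libraries, so the targeted transcript was lower in both libraries labelled DcpS shRNA. A normalised read count is the number of reads of a gene divided by a size factor of its library. Fold changes below are on the log2(normalised read count + 1) scale, and a gene is called when its adjusted p is under 0.05 (limma, Benjamini-Hochberg over 18110 genes). The cultures carried the markers of neurons: the summed level of 12 neuron markers, such as Tubb3, Map2 and Dcx, was 5359 and 5441 CPM (reads scaled to a common library total) in the controls and 5123 and 5193 CPM with DcpS shRNA.

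The label of an oligodendrocyte lineage was checked against further defining markers, and several of these were close to absent. Sox10, the transcription factor that marks the lineage from precursor to mature cell, had 0 reads in both controls, 1 read in DcpS shRNA 1 and 4 reads in DcpS shRNA 2. A count of 0 allows up to 3 reads, or 0.138 to 0.169 CPM at these depths, for counting error only. The homeobox gene Nkx2-2, the precursor receptor Gpr17, the choline phosphodiesterase Enpp6 and the myelin genes Mag, Mobp and Opalin had no more than 3 reads in any library. The 7 genes are therefore described as genes, and not as the readout of a defined population of oligodendrocytes.

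Mog, a surface protein of the outermost myelin layer, nonetheless had 96 to 137 reads per library. It was not called, with a log2 fold change of −0.15 (SE 0.15, limma, Benjamini-Hochberg adjusted p 0.641). Mog was thus read in the same libraries in which Mag, Mobp and Opalin were near 0.

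**Figure D1:**
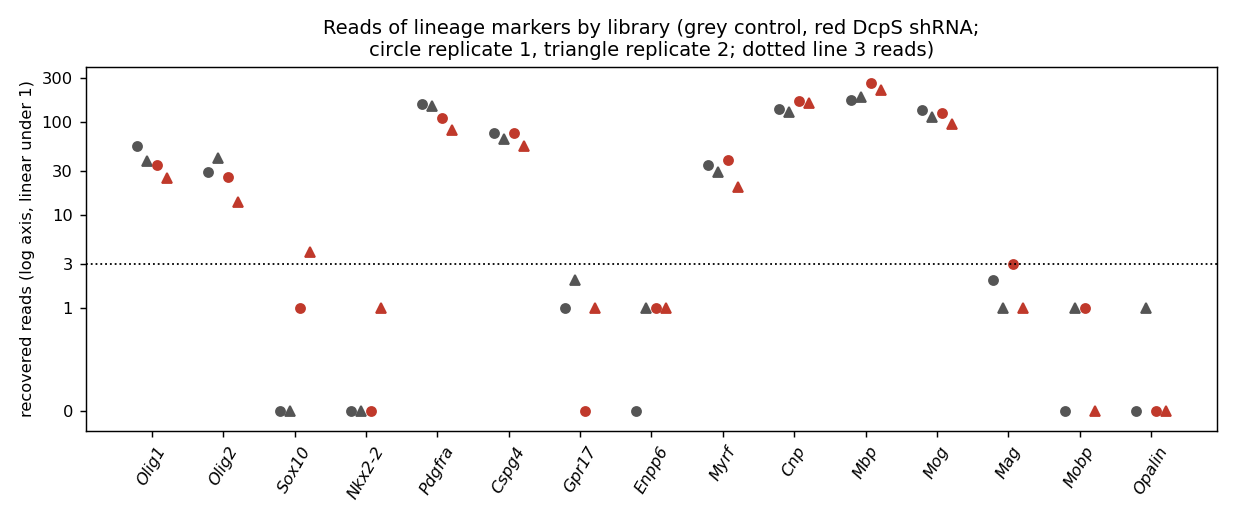
Recovered reads (vertical axis, logarithmic above 1 read) of lineage markers in each of the 4 libraries, with control libraries in grey, DcpS shRNA libraries in red, circles for replicate 1 and triangles for replicate 2. Sox10, Nkx2-2, Gpr17, Enpp6, Mag, Mobp and Opalin sit at or near the dotted line of 3 reads or below it, while the 7 described genes and Mog lie between 14 and 264 reads.

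With DcpS shRNA, 2 of the 7 genes were called, and in opposite directions. Pdgfra, the precursor's growth factor receptor, fell by 0.63 on the log2 scale, and Mbp, a structural protein of compact myelin, rose by 0.47. The other 5 did not pass: Olig1 and Olig2 had lower values in both DcpS shRNA libraries, Cnp had higher values in both, and Cspg4 and Myrf overlapped between the groups. Of all genes tested, 5.79% were called, 2.14% higher and 3.65% lower. The median of the 7 log2 fold changes was −0.15, beside 0.0007 over all genes tested. The groups did not overlap for 5 of the 7 genes, against 48.4% of all genes tested, so separation of the groups is common in this comparison. For 1 gene in 2 libraries against 2, the lowest two-sided p that exact permutation allows is 0.333.

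**Figure D2:**
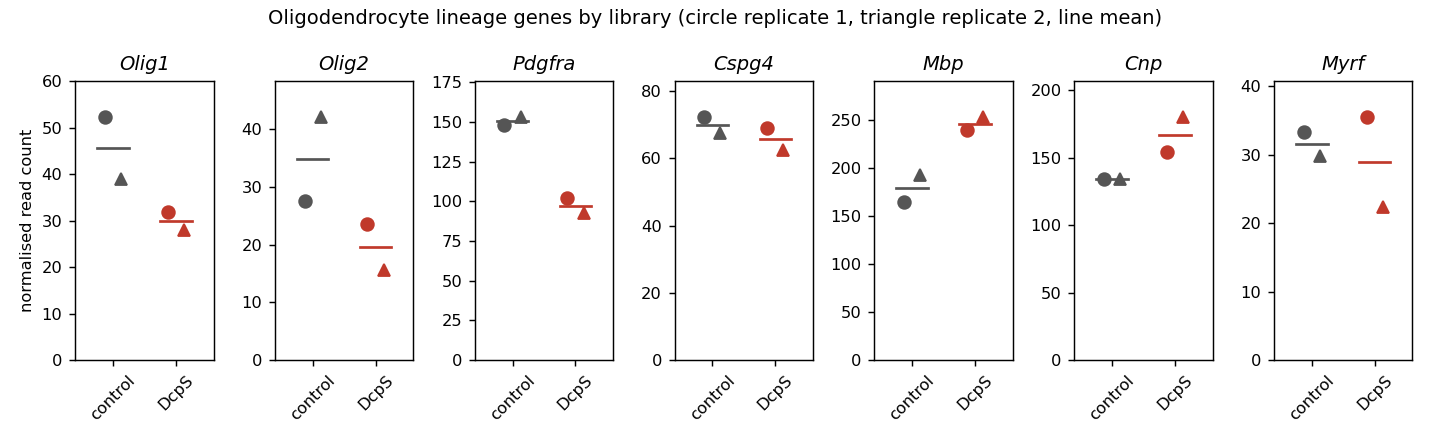
Normalised read count (vertical axes from 0, 1 panel per gene) of the 7 genes in control libraries (grey) and DcpS shRNA libraries (red), with circles for replicate 1, triangles for replicate 2 and lines for the mean of 2 libraries. Pdgfra, Olig1 and Olig2 lie lower and Mbp and Cnp higher in both DcpS shRNA libraries, while Cspg4 and Myrf overlap.

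The 7 genes were all of low abundance in these cultures. Their mean level over the 4 libraries ran from 1.37 CPM for Olig2 to 10.7 CPM for Mbp, which placed them between the percentiles 16.8 and 42.05 of the mean level of tested genes. Per length of merged exons, Cnp had the highest level in each of the 4 libraries, at 1.86 and 1.86 CPM per kilobase (RPKM) in the controls and 2.14 and 2.49 RPKM with DcpS shRNA. Cspg4 was next to lowest in each library, at 0.264 to 0.305 RPKM, and Myrf was lowest, at 0.132 to 0.209 RPKM. Between these, Mbp ran from 0.979 to 1.503 RPKM, Olig1 from 0.651 to 1.22 RPKM, Pdgfra from 0.466 to 0.770 RPKM and Olig2 from 0.312 to 0.839 RPKM. These ranges overlap between neighbours, and in the controls the order of Mbp and Olig1, and that of Pdgfra and Olig2, differed between the libraries. Exon lengths came from GENCODE M21 and may differ from the models in which the reads were counted.

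Olig1 and Olig2 encode related basic helix-loop-helix transcription factors and lie on chromosome 16 of GRCm38, Olig2 at 91225457 to 91228677 and Olig1 at 91269772 to 91271933, both on the plus strand. Besides the oligodendrocyte lineage, Olig2 is known in progenitors of the ventral forebrain. Olig2 had a normalised read count of 27.6 and 42.0 in the controls and of 23.6 and 15.6 with DcpS shRNA, the last from 14 reads. Both DcpS shRNA values lay below both controls, and the controls differed from each other by more than control 1 differed from DcpS shRNA 1. The mean went from 34.8 ± 10.2 to 19.6 ± 5.64 (SD, n = 2 per group), a log2 fold change of −0.79 (SE 0.31) that was not called (limma, Benjamini-Hochberg adjusted p 0.173). Its size depended on each library: the log2 fold change of Olig2 was −0.50 without control 2, −0.51 without DcpS shRNA 2, −1.08 without control 1 and −1.07 without DcpS shRNA 1, called in none of these (lowest limma, Benjamini-Hochberg adjusted p 0.0552, without DcpS shRNA 1).

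Olig1 had a normalised read count of 52.3 and 39.0 in the controls and of 31.8 and 27.9 with DcpS shRNA. Here too both DcpS shRNA libraries were below both controls, with control 1 the highest. The mean was 45.6 ± 9.40 in the controls and 29.9 ± 2.73 with DcpS shRNA (SD, n = 2 per group), a log2 fold change of −0.58 (SE 0.25) that was not called (limma, Benjamini-Hochberg adjusted p 0.213). Without control 1 the log2 fold change of Olig1 was −0.37. Olig1 overlaps the long intergenic RNA Gm15966 on the opposite strand, which was not among the counted genes. The labels do not state whether strand was used in counting, so reads of the shared stretch cannot be told apart.

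Other genes of the ventral forebrain, where Olig2 is also expressed, gave no call. Of 14 progenitor and interneuron markers 9 were tested, 0 higher and 0 lower, with a median log2 fold change of −0.21, Olig1 and Olig2 included. The GABA-synthesis enzyme Gad1 (−0.55, SE 0.17) and the homeobox gene Dlx1 (0.04, SE 0.19) had adjusted p of 0.0716 and 0.944 (limma, Benjamini-Hochberg). The summed level of this list was 35.1 and 38.6 CPM in the controls and 30.4 and 30.8 CPM with DcpS shRNA, and its part in the values of Olig1 and Olig2 was not tested.

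Of 16 lineage transcription factors on the list 12 were tested, Olig1, Olig2 and Myrf among them, and 1 was higher and 0 lower. Myt1, a zinc finger factor of oligodendrocyte precursors and of young neurons, rose from normalised read counts of 2060 and 1961 to 2497 and 2390 (log2 fold change 0.28, SE 0.06, adjusted p 0.00519), a call that was lost without control 2 (limma, Benjamini-Hochberg adjusted p 0.0926). The SoxD factors Sox5 (−0.03, SE 0.05, adjusted p 0.815) and Sox6 (0.12, SE 0.06, adjusted p 0.255), which are abundant in cortical neurons and in precursors, were not called. The list's median was 0.05, beside 0.0007 for all genes tested.

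Pdgfra lies on chromosome 5 of GRCm38 at 75152292 to 75198215, on the plus strand. It had a normalised read count of 148 and 153 in the controls and of 102 and 92.8 with DcpS shRNA. The groups were well separated, with the libraries of each group close together: the mean went from 151 ± 3.24 to 97.3 ± 6.37 (SD, n = 2 per group). The log2 fold change was −0.63 (SE 0.14), which is 0.648 times the control level on that scale (limma, Benjamini-Hochberg adjusted p 0.0144). Adjusted p was 0.0575 without control 1, 0.0806 without control 2 (limma, Benjamini-Hochberg) and 0.168 in DESeq2, which ended the call, in a range from 0.00137 to 0.178 over the 13 alternatives. In all of these the log2 fold change stayed between −0.69 and −0.56.

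The 300 bases around the RefSeq start of Pdgfra, at chr5:75152001-75152300 of GRCm38.p6 on the plus strand, are shown because it is the called gene that fell, beside those of Cnp, a myelin gene with higher values, at chr11:100574689-100574988 on the plus strand. Both run from 250 bases before the start to 50 after it and are given 5′ to 3′. Capitals mark matches on either strand to CANNTG, the E-box word to which OLIG proteins and other helix-loop-helix factors bind.
Pdgfra: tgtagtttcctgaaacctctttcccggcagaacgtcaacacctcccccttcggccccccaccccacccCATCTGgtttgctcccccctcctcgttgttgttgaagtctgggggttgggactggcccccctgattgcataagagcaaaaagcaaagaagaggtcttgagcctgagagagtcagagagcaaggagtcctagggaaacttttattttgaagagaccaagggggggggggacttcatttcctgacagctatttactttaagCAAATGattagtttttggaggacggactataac
Cnp: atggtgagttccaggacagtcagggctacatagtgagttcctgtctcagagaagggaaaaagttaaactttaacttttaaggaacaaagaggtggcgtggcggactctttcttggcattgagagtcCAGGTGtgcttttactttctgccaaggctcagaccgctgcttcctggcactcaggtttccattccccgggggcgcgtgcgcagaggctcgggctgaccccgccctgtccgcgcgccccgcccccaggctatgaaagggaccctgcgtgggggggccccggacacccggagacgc

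The Pdgfra window holds 2 matches to CANNTG and that of Cnp holds 1, while the windows of Olig2 and Cspg4 hold 0. Of 32851 promoter windows in the RefSeq table, 72.3% hold at least 1, so a match is common. The word GGGCGG, read on either strand, is present in the windows of Cspg4, Cnp and Olig2 and in 35.7% of all windows, and not in that of Pdgfra. The word TATAAA, read on either strand, is present in the window of Olig2 and in 13.6% of all windows. The table gave a window for these 4 of the 7 genes.

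The 7-base words ACGTGCA and CACGTGC were noted in earlier work on these data as frequent in genes that were lower with DcpS shRNA. Both are in the annotated 3′ UTR of Dcps, where they overlap, and the stretch is shown because it holds both words, the second in capitals.
Dcps: atcacctgCACGTGCatttcaca

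At least 1 of these words was found in an annotated 3′ UTR of 8.0% of the 13709 tested genes that could be scanned, and of 33.1% of those called lower. The words were picked for being frequent in such genes of these same data. How much of the higher share came from that choice was not tested. That share is no independent evidence, and the length of the 3′ UTRs was not taken into account. Of the 7 genes 0 held either word, Pdgfra, Olig1 and Olig2 included. This says only that these letters are not in the annotated 3′ UTRs.

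Pdgfra also marks fibroblasts, and it was on the list of 13 fibroblast markers, all of which were tested. Of these 10 were lower and 0 higher, with a median log2 fold change of −0.75. The collagens Col1a1 (−0.87, SE 0.06), Col1a2 (−0.85, SE 0.07), Col3a1 (−0.77, SE 0.06), Col5a1 (−0.83, SE 0.07) and Col6a1 (−0.75, SE 0.07), the matricellular protein Postn (−1.07, SE 0.08) and the fibrillin Fbn1 (−1.08, SE 0.18) fell, and so did the small proteoglycans Lum and Dcn. The summed level of the list was 702 and 770 CPM in the controls and 431 and 409 CPM with DcpS shRNA, and no marker on it was at 0. In a bulk library, fewer cells of a type and less RNA per cell cannot be told apart, and the part of fibroblasts in the fall of Pdgfra was not tested. With no filter on low counts Fbn1 was no longer called (limma, Benjamini-Hochberg adjusted p 0.0947). The call of Lum ended without either control or DcpS shRNA 1 and in DESeq2 (adjusted p 0.103 to 0.286). The call of Dcn was lost without control 2 (0.0698) and in DESeq2 (0.103). These lists were drawn up with earlier results of these data known, so their counts are no independent evidence of a direction.

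PDGF ligands and receptors include the signal that precursors need. Of 6 genes 5 were tested, 2 were lower and 0 higher, with a median of −0.36. Pdgfrb, the receptor of pericytes and fibroblasts, fell from normalised read counts of 506 and 534 to 329 and 304 (log2 fold change −0.72, SE 0.09, limma, Benjamini-Hochberg adjusted p 9.13e-05), together with Pdgfra. The ligand genes Pdgfa (−0.16, SE 0.11) and Pdgfc (−0.17, SE 0.11) were not called, with adjusted p of 0.470 and 0.421 (limma, Benjamini-Hochberg).

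Cspg4 lies on chromosome 9 of GRCm38 at 56865033 to 56899870, on the plus strand, and encodes NG2, which is carried by precursors and by pericytes. Control libraries 1 and 2 gave normalised read counts of 72.2 and 67.7, and DcpS shRNA libraries 1 and 2 gave 69.1 and 62.6. The groups overlapped, and their means of 69.9 ± 3.20 and 65.8 ± 4.58 (SD, n = 2 per group) were close. The log2 fold change was −0.09 (SE 0.18), not called (limma, Benjamini-Hochberg adjusted p 0.858). Whether the changes of Pdgfra and Cspg4 differ was not tested.

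Pericytes and smooth muscle cells share Cspg4 with the lineage. Of 12 markers 10 were tested, 2 were lower and 0 higher, with a median of −0.16. Smooth muscle actin, Acta2, fell from normalised read counts of 77.0 and 90.3 to 23.6 and 19.0 (log2 fold change −1.93, SE 0.23, limma, Benjamini-Hochberg adjusted p 7.33e-05), and Pdgfrb was the other lower gene. Notch3 (0.16, SE 0.07, adjusted p 0.248) and Vtn (0.10, SE 0.14, adjusted p 0.759) were not called (limma, Benjamini-Hochberg). The list summed to 80.0 and 80.6 CPM in the controls and to 67.0 and 70.5 CPM with DcpS shRNA, and the muscle filament gene Des was at 0 to 2 reads. What these cells add to Cspg4 was not tested.

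Genes named for precursors moved in both directions. Of 18 on the list 13 were tested, 4 were lower, 1 was higher and 8 did not pass, with a median of −0.09. Beside Pdgfra, the endocytic adaptor Epn2 (−0.36, SE 0.07, adjusted p 0.00345), the matrix glycoprotein Tnr (−0.24, SE 0.07, adjusted p 0.0379) and the proteoglycan Vcan (−0.22, SE 0.06, adjusted p 0.0347) fell, and the proteoglycan Cspg5 rose (0.26, SE 0.07, adjusted p 0.0295, all limma, Benjamini-Hochberg). Epn2, Tnr, Vcan and Cspg5 had a mean of 51.4 to 211 CPM, above the 6.25 CPM of Pdgfra, and are known in neurons or radial glia as well. The calls of Tnr, Vcan and Cspg5 were lost without control 1 (adjusted p 0.386, 0.0505 and 0.305 in limma, Benjamini-Hochberg) and in DESeq2 (0.215, 0.0762 and 0.176), and that of Vcan without control 2 (0.458).

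Mbp lies on chromosome 18 of GRCm38 at 82475146 to 82585637, on the plus strand. Besides the classic myelin basic proteins, the same gene makes golli proteins from an upstream start, which are known in neurons and in immune cells, and values per gene do not separate them. Mbp had a normalised read count of 164 and 193 in the controls and of 239.9 and 253 with DcpS shRNA, so both DcpS shRNA libraries were above both controls. The mean went from 179 ± 20.1 to 246 ± 8.98 (SD, n = 2 per group), and the log2 fold change was 0.47 (SE 0.12, limma, Benjamini-Hochberg adjusted p 0.0288). Adjusted p was 0.234 without control 1, 0.0519 without DcpS shRNA 2 (limma, Benjamini-Hochberg) and 0.221 in DESeq2, which ended the call, in a range from 0.00293 to 0.248 over the 13 alternatives, with a log2 fold change of 0.35 to 0.58. The pseudogene Rpl21-ps8 lies inside Mbp on the opposite strand and had normalised read counts of 38.2 to 53.6, with overlapping groups.

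Cnp, an enzyme of the myelin sheath, lies on chromosome 11 of GRCm38 at 100574904 to 100591729, on the plus strand. It had a normalised read count of 134.0 and 134.3 in the controls and of 154 and 179.9 with DcpS shRNA. Both DcpS shRNA libraries were higher, but they differed from each other by more than DcpS shRNA 1 differed from the controls. The mean was 134 ± 0.262 and 167 ± 18 (SD, n = 2 per group), and the log2 fold change of 0.31 (SE 0.13) was not called (limma, Benjamini-Hochberg adjusted p 0.219). Without DcpS shRNA 2 it was 0.20. Cnp overlaps the chaperone gene Dnajc7 on the opposite strand, which at a mean of 202 CPM was far above the 7.60 CPM of Cnp. Dnajc7 had a log2 fold change of 0.10 (SE 0.05, adjusted p 0.294), and without the strand setting its reads in the shared stretch cannot be told apart from those of Cnp.

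Myrf lies on chromosome 19 of GRCm38 at 10208272 to 10240748, on the minus strand, and encodes the membrane-bound transcription factor that myelin genes require. Control libraries 1 and 2 gave normalised read counts of 33.3 and 29.7, and DcpS shRNA libraries 1 and 2 gave 35.4 and 22.3. The DcpS shRNA libraries lay on either side of the controls, with means of 31.5 ± 2.49 and 28.9 ± 9.25 (SD, n = 2 per group). The log2 fold change was −0.15 (SE 0.28), not called (limma, Benjamini-Hochberg adjusted p 0.838), and without DcpS shRNA 2 it was 0.17. At 20 to 39 reads per library, the SE of Myrf was larger than its change, and the smallest change that could be called was not computed.

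**Figure D3:**
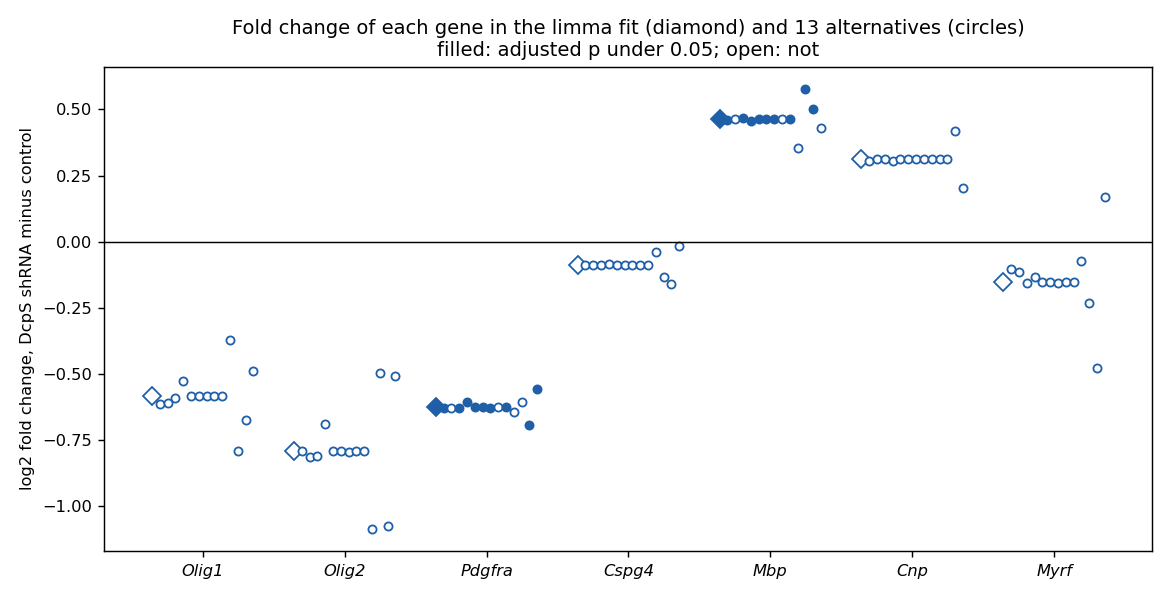
Log2 fold change (vertical axis, DcpS shRNA minus control) of the 7 genes in the limma fit (diamonds) and in 13 alternatives (circles), filled where the adjusted p is under 0.05 and unfilled otherwise, the NA of Olig2 in DESeq2 included. Pdgfra stays between −0.69 and −0.56 and Mbp between 0.35 and 0.58 with filled and open points, while all points of Olig1, Olig2, Cnp and Cspg4 are unfilled and Myrf crosses 0.

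Of the 32 genes named for myelin and mature oligodendrocytes, 21 were tested, 1 was higher (Mbp), 2 were lower and 18 did not pass, with a median of −0.07. The tight-junction gene Cldn11, which is also known in fibroblasts of the meninges, fell from normalised read counts of 136 and 147 to 67.2 and 51.4 (log2 fold change −1.25, SE 0.17, adjusted p 0.000298). Enpp2, the secreted enzyme autotaxin, fell from 372 and 442 to 229.9 and 256 (log2 fold change −0.74, SE 0.11, limma, Benjamini-Hochberg adjusted p 0.000494). The rise of Mbp was thus not shared by the other called genes of the list. The 11 genes not tested include 7 with no more than 3 reads in every library, among them Mag, Mobp and Opalin.

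Schwann cells make the myelin of peripheral nerves and share several of these genes. Of 11 Schwann cell markers 6 were tested, 0 higher and 0 lower. Prx (−0.22, SE 0.12), Pmp22 (0.22, SE 0.14) and Ngfr (0.16, SE 0.13) had adjusted p of 0.344, 0.435 and 0.571 (limma, Benjamini-Hochberg). The list had a median of −0.03 and summed to 31.4 to 33.5 CPM in the 4 libraries.

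Hedgehog signalling induces the Olig genes in the ventral neural tube. Of 16 genes of that pathway 14 were tested, 1 was higher and 0 lower, with a median of −0.03. The transcription factor Gli3 rose from normalised read counts of 1982 and 2193 to 2941 and 2550 (log2 fold change 0.39, SE 0.07, limma, Benjamini-Hochberg adjusted p 0.00258). The co-receptor Cdon (0.10, SE 0.05, adjusted p 0.325) and the signal transducer Smo (−0.04, SE 0.06, adjusted p 0.773) were not called, and the ligand Shh had 2 to 5 reads. Without DcpS shRNA 2 the count of called pathway genes was 5 in place of 1 (limma, Benjamini-Hochberg): Gli3, Cdon, Boc and Gas1 were higher and Hhip was lower. Of 13 genes that hold back oligodendrocyte differentiation 12 were tested, 2 were lower and 0 higher, with a median of −0.03. The Wnt receptor Fzd1 (−0.35, SE 0.07, adjusted p 0.00889) and the Notch ligand Jag1 (−0.25, SE 0.07, adjusted p 0.0428) fell, while Id2 (−0.05, SE 0.06), Notch1 (−0.03, SE 0.07) and Id4 (0.21, SE 0.06, adjusted p 0.0522) were not called (limma, Benjamini-Hochberg). Without control 1 the calls of Fzd1 (limma, Benjamini-Hochberg adjusted p 0.172) and Jag1 (0.349) ended, and that of Jag1 also without control 2 (0.0558), without DcpS shRNA 1 (0.0521) and in DESeq2 (0.270). Bmp4 (lower) and Id4 (higher) joined Fzd1 and Jag1 in the fit without DcpS shRNA 2, which leaves 1 library in that group. Bmp4 had 15 and 14 reads in the controls and 3 in DcpS shRNA 1, so its place there rests on few reads.

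Astrocytes share a progenitor with the oligodendrocyte lineage. Of 12 astrocyte markers 10 were tested, 4 were lower and 1 was higher, with a median of −0.32. The water channel Aqp4 (−1.13, SE 0.25), the filament gene Gfap (−0.91, SE 0.21), the gap-junction gene Gja1 (−0.67, SE 0.08) and the matricellular gene Sparcl1 (−0.45, SE 0.06) fell, and the aldolase Aldoc rose (0.21, SE 0.05). Their adjusted p ran from 8.15e-05 for Gja1 to 0.0241 for Gfap (limma, Benjamini-Hochberg). Without control 2 the calls of Aqp4, Gfap and Aldoc ended (adjusted p 0.0682, 0.255 and 0.239 in limma, Benjamini-Hochberg), as did that of Aldoc without control 1 (0.162), that of Gfap without DcpS shRNA 1 (0.0728) and that of Aqp4 in DESeq2 (0.110). The list summed to 711 and 715 CPM in the controls and 678 and 684 CPM with DcpS shRNA. Of 12 neuron markers, all tested, Rbfox3 was higher (0.24, SE 0.06, adjusted p 0.0261) and Snap25 lower (−0.26, SE 0.06, adjusted p 0.0108), with a median of −0.03 (limma, Benjamini-Hochberg). The most abundant of them, Dcx (−0.15, SE 0.05), Map2 (−0.03, SE 0.05) and Tubb3 (−0.02, SE 0.05), were not called. The call of Rbfox3 ended without control 2 (0.323) and in DESeq2 (0.136), and that of Snap25 without control 1 (0.123). The count of called neuron markers was 6 without DcpS shRNA 1, among them Dcx and Neurod6 (lower) and Stmn2 (higher), and 4 without an expression filter, with Dcx and Neurod6 lower, Rbfox3 and Snap25 included in both (limma, Benjamini-Hochberg), and 1 without control 1, without control 2 and in DESeq2.

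**Figure D4:**
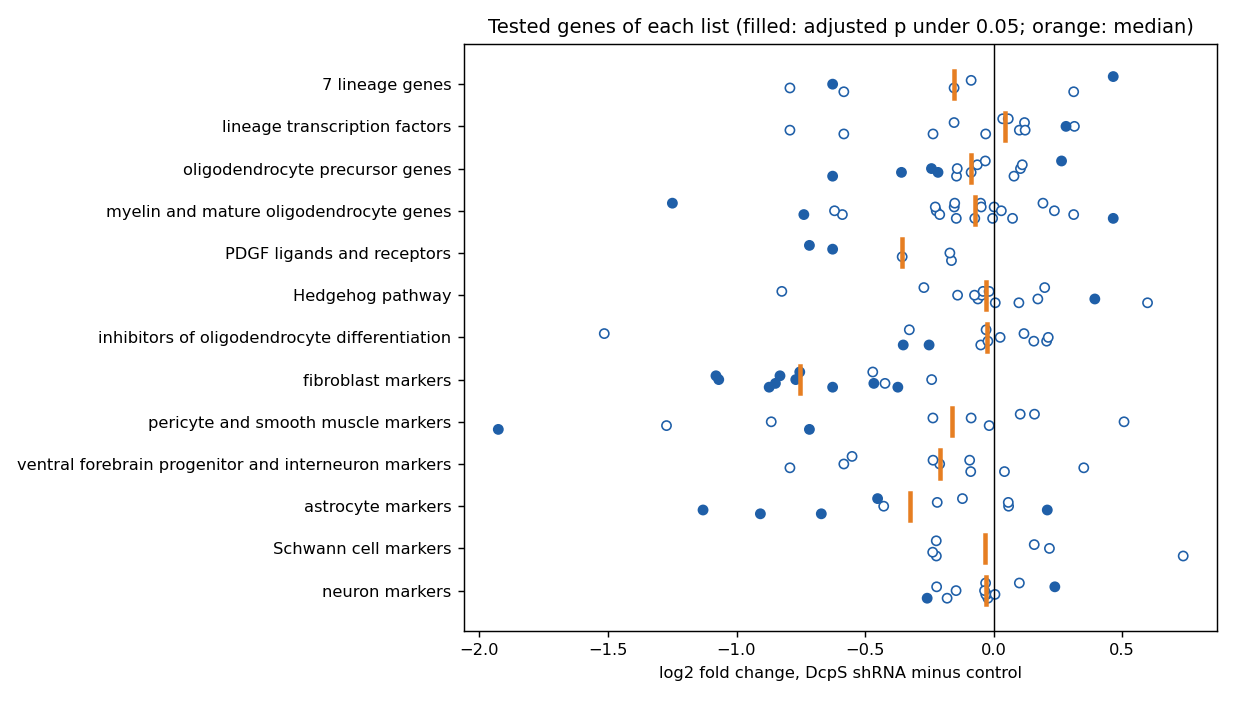
Log2 fold change (horizontal axis, DcpS shRNA minus control) of every tested gene of 13 lists, 1 point per gene, filled where the adjusted p is under 0.05, with the list's median in orange. The fibroblast list has a median of −0.75, while the medians of the lineage transcription factor, precursor and myelin lists lie between −0.09 and 0.05.

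Genes with the pattern most like that of each called gene were found by the Euclidean distance between log2 values centred over the 4 libraries, among the other 15873 tested genes whose mean reached 1 CPM. Nearest to Pdgfra were Tcim (distance 0.0284), the sialyltransferase gene St8sia4 (0.0359) and Zbbx (0.0529). Of these St8sia4 was called (log2 fold change −0.60, SE 0.09, limma, Benjamini-Hochberg adjusted p 0.000413) and Tcim and Zbbx were not (0.171 and 0.213). Nearest to Mbp were Rapgef4, an exchange factor for Rap GTPases that responds to cyclic AMP (distance 0.0288), Abhd14a (0.0476) and Tmem151a (0.0530). Rapgef4 (adjusted p 0.0486) and Tmem151a (0.0274) were called and Abhd14a (0.0720) was not (limma, Benjamini-Hochberg). Rapgef4 was called in 6 of the 13 alternatives, Tmem151a in 9 and Abhd14a in 2, and the adjusted p of Rapgef4 without control 1 was 0.327. With 4 libraries in 2 groups, such a distance mostly matches the size and sign of the group difference.

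The calls of Pdgfra and Mbp depended on the tool. edgeR's quasi-likelihood test, which called 5.95% of all genes, called both, with Benjamini-Hochberg adjusted p of 0.0133 for Pdgfra and 0.0288 for Mbp. DESeq2, which called 2.47% of all genes, called 0 of the 7 (its adjusted p of Olig2 is NA), where Pdgfra and Mbp had an unadjusted p under 0.05 and limma had 5 such genes. Limma without trend and robust empirical Bayes called 0 of 18110 genes, so each call named above ended there, while 2538 genes had an unadjusted p under 0.05.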

How the data were processed

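Per the submitters' processing notes, the tools were HISAT2 2.2.0, SAMtools 1.3.1, Picard, featureCounts and DESeq2 on GRCm38; the annotation and strand setting are not stated there. The deposited values are a signal: gene counts divided by 1 size factor per library by the authors. Dividing by the smallest positive value of each column recovered whole reads for 100% of values (tolerance 0.001), 17754768 to 21793685 per library.

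The design named limma for scaled values, which the files held. Genes passing filterByExpr on recovered reads (minimum count 10), 18110 in all, were fitted with limma 3.58.1 on log2(value + 1), with trend and robust empirical Bayes and group as the only term, two-sided. Alternatives were edgeR 4.0.16, DESeq2 1.42.0 (R 4.3.3), pseudocounts 0.5 and 5, no filter, TMM, library totals, no trend, a replicate block and leaving out each library. The script was tested on simulated counts in which every gene had the same dispersion in both groups. That run therefore gives no error rate for the calls here. Within each group the libraries differed beyond counting noise (chi-square over degrees of freedom 2.15 in controls and 4.04 with DcpS shRNA).

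The 7 genes and the lists (lineage transcription factors, precursor, myelin, PDGF, Hedgehog, differentiation inhibitors, fibroblast, pericyte, ventral forebrain, astrocyte, Schwann cell and neuron) were chosen with earlier results of these data known. Named were called genes, up to 8 per list by fold change; where fewer than 3 were called, also the 3 most abundant tested; Sox10, Mag, Mog and Mobp; and the 3 nearest patterns of each called member. Dcps, overlapping genes, further markers with few reads and the 3′ UTR words were added after values were seen. Lists are described by counts and medians. Some genes that the naming rule covers are not reported here.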

Additional observations from a re-analysis of the deposited data

How the results depend on the processing

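The 13 alternatives gave 90 values with an adjusted p for the 7 genes (that of Olig2 in DESeq2 is NA), of which 81 kept direction and side of the threshold, 8 lost the call and 1, Myrf without DcpS shRNA 2 (0.17), turned in direction. In DESeq2 and in limma without trend and robust the log2 fold change of Pdgfra was −0.63 and −0.63 (adjusted p 0.168 and 0.178) and that of Mbp 0.46 and 0.47 (0.221 and 0.248), neither called. Leaving out 1 library at a time gave −0.69 to −0.56 for Pdgfra, 0.35 to 0.58 for Mbp and −0.48 to 0.17 for Myrf, and 0 to 2 of the 7 genes called: 0 without control 1, 1 (Mbp) without control 2, 1 (Pdgfra) without DcpS shRNA 2 and 2 without DcpS shRNA 1. Over all genes, 1048 calls became 448 in DESeq2 and 593 to 1594 with 1 library left out: 615 without control 1, 593 without control 2 and 1594 without DcpS shRNA 1. Limma without trend and robust, which gives every gene the same prior spread, called 0 genes in all (2538 at an unadjusted p under 0.05; edgeR called 1077 and DESeq2 448), 0 of the 7 genes and 0 of the 30 list genes called; DESeq2 also called 0 of the 7. In the other alternatives 20 to 39 list genes were called. With the replicate number as a block, 1626 genes were called, 1047 of them shared with the 1048, and the calls of Pdgfra (0.00137) and Mbp (0.00293) held; that of Fbn1 did not (0.299). The block called 3 Hedgehog genes in place of 1, 4 differentiation inhibitors in place of 2, 4 neuron markers in place of 2 and 1 ventral forebrain gene, Gad1 (0.0357), in place of 0. The titles number the libraries of both groups as set 1 and set 2 and do not say whether same-numbered libraries share a preparation. The deviations of control 1 and DcpS shRNA 1 from their group means correlated at 0.0429 over 18110 genes. With 2 libraries per group, this value cannot decide whether the libraries were paired. Reads limit the lowest genes most, with 110 reads of Olig2 and 123 of Myrf over all 4 libraries.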
